A study of Mus musculus with 12 samples.

Results

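The 39 genes described here encode the enzymes that carry glucose through glycolysis to pyruvate and lactate, and the enzymes of the pentose phosphate pathway. They also encode the carriers that bring pyruvate into the mitochondrion, and pyruvate dehydrogenase with the kinases that switch it off. They were chosen by symbol as enzymes of these pathways, with no threshold on a measured value, and all 39 were present in both deposited expression tables, which together hold 32419 genes. RNA-seq was performed on primary brain endothelial cells (BECs) of 8-week-old C57BL/6 mice, each replicate a pool of cells from 3 mice, to ask what the lack of the neuropeptide cortistatin (gene Cort) changes in the brain endothelium. The samples form 4 groups. Cort+/+ and Cort-/- BECs were kept for 24 h in normoxia and normoglycaemia (NX/NG, labelled NM, 21% oxygen and 5.5 mM glucose). Others of both genotypes went through 4 h of oxygen-glucose deprivation in medium without serum (1% oxygen, 0 mM glucose). They then had 20 h of reoxygenation in medium with serum (OGD-R, labelled OGD). Values existed here for 3 Cort+/+ libraries (replicates 1, 2 and 3) in each environment, for Cort-/- replicates 1 and 2 under NX/NG and for Cort-/- replicates 1 and 3 after OGD-R. The remaining 2 of the 12 labelled samples were not analysed here. All samples carry the label of a stroke model (MCAO), while the study's methods describe deprivation in culture. The cells were selected with puromycin in culture, so the libraries describe cultured endothelium, and the deletion was carried by the mice and not induced in culture.

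The depth was nearly equal, between 12386048 and 12390428 reads on genes per library, and why the totals are so close is not given in the sources used here. Cort itself was covered by 0 to 2 reads per library and by 0 in every Cort-/- library, too few to check the genotype labels. In 2 libraries, Cort-/- OGD-R replicate 3 and Cort+/+ OGD-R replicate 1, ribosomal 18S RNA took 0.0951% and 0.0775% of the reads. In the other 8 it took 7.64% to 15.8%. Some of the results that rest on these 2 libraries are also given without them or with low ribosomal RNA as a factor. All 11 endothelial markers were above 1 RPKM in every library. The markers of neurons and oligodendrocytes stayed under 1 RPKM in every library, and so did 4 of the 5 astrocyte markers present in both tables, 5 of 6 microglial or macrophage markers and 3 of 4 choroid plexus markers. The smooth muscle markers summed to 1028 to 1857 RPKM, carried by Acta2 (614 to 1105 RPKM) and Tagln (349 to 695 RPKM). Smtn was at 39.1 to 59.1 RPKM and Cnn1 at 5.92 to 16.8 RPKM. Myh11 (0.494 to 2.17 RPKM) and Des (0.0885 to 0.378 RPKM) were low.

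Glycolysis splits glucose into pyruvate in the cytosol, and its first committed step, the phosphofructokinase reaction, is tuned by fructose-2,6-bisphosphate, which the PFKFB enzymes make and break and which Tigar breaks. Pyruvate is either reduced to lactate by lactate dehydrogenase, which regenerates NAD+, or carried into the mitochondrion and oxidized by the pyruvate dehydrogenase complex, which the kinases Pdk1 to Pdk4 switch off. The pentose phosphate pathway branches off at glucose-6-phosphate, supplies NADPH and ribose, and returns sugars to glycolysis through transketolase and transaldolase. Endothelial cells are known to rely on glycolysis for much of their ATP. Many of these genes are known targets of the hypoxia-inducible factors (HIF), for which ACGTG is a form of the core binding letters.

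Levels are given in RPKM (reads normalised to gene length and to library size), scaled over all 10 libraries. The enzymes ranged from 0.228 RPKM for Aldoc, the brain-type aldolase, to 248 RPKM for Pkm, pyruvate kinase of muscle and proliferating cells, as means over the 10 libraries. Of the 39 genes, 37 had a mean of at least 1 RPKM and 6 had a mean above 100 RPKM, namely Pkm, Gapdh, Aldoa, Ldha, Pgk1 and Taldo1. In 25 genes the mean level lay at or above the 75th percentile of the 27321 genes present in both tables. Together the 39 genes took 0.572% to 0.776% of the reads of a library.

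**Figure D1:**
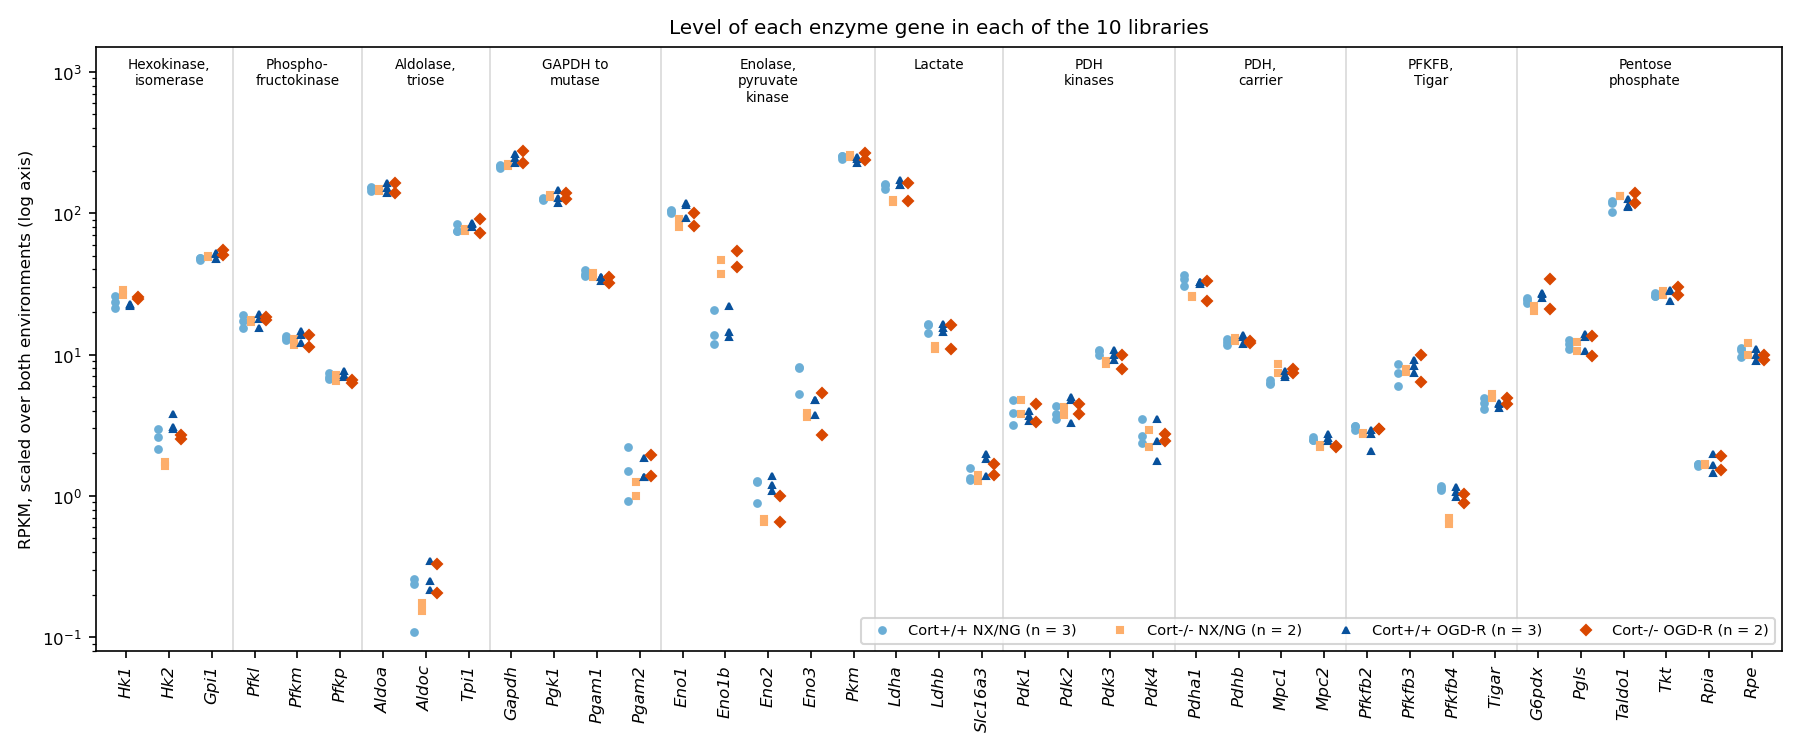
RPKM of each of the 39 genes (log axis) in each of the 10 libraries, by role of the enzyme; points are libraries and colours and shapes are the 4 groups. The levels of 1 gene stay close together over all libraries compared with the differences between genes. Eno1b, Eno3, Hk2 and Ldha are among the genes whose genotypes do not overlap under NX/NG.

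The entry of glucose into the pathway was served by Hk1, the constitutive hexokinase, at 21.4 to 28.5 RPKM, with Hk2, the inducible form, at 1.63 to 3.77 RPKM. Gpi1, which converts glucose-6-phosphate into fructose-6-phosphate, stood at 48.3, 46.7 and 48.0 RPKM in Cort+/+ and 48.7 and 50.1 RPKM in Cort-/- BECs under NX/NG. After OGD-R Gpi1 stood at 51.2, 52.2 and 47.1 RPKM in Cort+/+ and at 50.3 and 54.5 RPKM in Cort-/- BECs. The Cort-/- libraries lay just above the Cort+/+ libraries under NX/NG, with no call, and the groups overlapped after OGD-R. All 3 phosphofructokinase genes were read. Pfkl, the liver-type subunit and the highest of them, measured 17.3, 15.5 and 19.1 RPKM in Cort+/+ and 17.6 and 16.9 RPKM in Cort-/- BECs under NX/NG, then 19.3, 18.0 and 15.5 RPKM and 18.3 and 17.4 RPKM after OGD-R. Its groups overlapped in both environments. Pfkm (11.3 to 14.8 RPKM) and Pfkp (6.31 to 7.68 RPKM) followed.

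Further down the pathway, Aldoa, the main aldolase, was at 150, 143 and 153 RPKM in Cort+/+ and 148 and 143 RPKM in Cort-/- BECs under NX/NG. After OGD-R Aldoa was at 149.9, 162 and 138 RPKM in Cort+/+ and 140.0 and 164 RPKM in Cort-/- BECs. Aldoc took at most 0.232% of the summed level of the aldolase pair in any library. Gapdh, the step that yields NADH, measured 221, 208 and 216 RPKM in Cort+/+ and 222 and 217 RPKM in Cort-/- BECs under NX/NG, and 246, 261 and 228 RPKM and 227 and 275 RPKM after OGD-R. All 5 libraries after OGD-R were above the 5 under NX/NG, but by a small margin, and the test across genes did not call it. Tpi1 (72.9 to 91.1 RPKM), Pgk1 (118 to 145 RPKM) and Pgam1 (32.2 to 39.5 RPKM) varied little between libraries, whereas Pgam2, the muscle mutase, was read by only 10 to 23 reads. Pkm measured 256, 241 and 253 RPKM in Cort+/+ and 259 and 248 RPKM in Cort-/- BECs under NX/NG, and 242, 251 and 227 RPKM and 237 and 265 RPKM after OGD-R, with overlapping groups. Of the words of 40 bases in Gapdh and Pgk1, 83.3% and 68.1% also occurred in other genes, so their levels also depend on the placement of shared reads. Lower shares were found in others, such as Pkm (42.2%), Pgam1 (41.8%), Pdhb (35.9%), Ldhb (34.3%) and Ldha (25.2%). The division of reads was examined only for the enolase pair described next.

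The largest log2 fold change between genotypes among the 39 genes was in the enolase step, where 2-phosphoglycerate becomes phosphoenolpyruvate. Eno1b, an enolase gene of chromosome 18 (GRCm38, 48045335 to 48048412) that GENCODE vM21 marks as a retrogene, measured 11.9, 13.6 and 20.8 RPKM in Cort+/+ against 47.0 and 37.2 RPKM in Cort-/- BECs under NX/NG. After OGD-R Eno1b measured 13.2, 14.4 and 21.9 RPKM in Cort+/+ and 41.8 and 54.1 RPKM in Cort-/- BECs. Every Cort-/- library was above every Cort+/+ library, and in both environments replicate 3 was the highest of the Cort+/+ libraries. The log2 fold change was 1.46 (SE 0.26, 95% interval 0.80 to 2.13) under NX/NG and 1.56 (SE 0.25, 0.93 to 2.18) after OGD-R. With limma in each environment alone Eno1b was not called (Benjamini-Hochberg adjusted p = 0.254 and 0.386), whereas limma-voom on the recovered reads called it under NX/NG (adjusted p = 0.0259, 0.408% of 19861 genes called) and not after OGD-R (adjusted p = 0.159).

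Eno1, the main enolase (chromosome 4, 150236721 to 150248879), went the other way. It measured 106, 104 and 101 RPKM in Cort+/+ against 91.6 and 80.4 RPKM in Cort-/- BECs under NX/NG, with no overlap, and 114, 117 and 92.7 RPKM against 81.4 and 99.6 RPKM after OGD-R, where the groups overlapped. The log2 fold change was -0.27 (SE 0.07) under NX/NG and -0.25 (SE 0.16) after OGD-R, neither called by limma (adjusted p = 0.434 and 0.978). Eno1 lies 1.11 Mb from Cort and was the only one of the 38 genes with a single GENCODE position that lay within 10 Mb of it. It also shares most of its sequence with Eno1b: of all words of 40 bases in the longest coding transcript of Eno1b, 78.3% also occurred in a transcript of Eno1, and of those in Eno1, 73.2% occurred in Eno1b. With words of 75 bases the shares were 68.1% and 64.2%. Reads of such stretches cannot be placed by sequence alone, so the levels of both symbols are uncertain by the share that the counting assigned to each.

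The 2 symbols were therefore also read as 1 feature. Over the length of Eno1, their summed reads gave 108 to 109.8 RPKM in Cort+/+ and 108 and 93.4 RPKM in Cort-/- BECs under NX/NG, and 118, 122 and 100.3 RPKM against 95.9 and 118 RPKM after OGD-R. The log2 fold change of the sum was -0.12 (SE 0.08, 95% interval -0.32 to 0.08) under NX/NG and -0.09 (SE 0.16, -0.48 to 0.30) after OGD-R, so the sum was not called in either environment (limma, adjusted p = 0.681 and 0.978). What separated the genotypes was the division of the reads: Eno1b took 3.79% to 7.61% of them in the 6 Cort+/+ libraries and 13.9% to 15.9% in the 4 Cort-/- libraries. With genotype labels permuted within each environment, an exact two-sided permutation test was run over 100 arrangements. This permutation test gave p = 0.31 for the summed level, 0.03 for Eno1, and 0.01 for Eno1b and for the Eno1b share. The smallest p it can give is 0.01, and the members were chosen with earlier results of these data known. Eno1b took the smaller part of the reads in every library, so the sum mainly follows Eno1. Whether the division reflects transcripts of Eno1b or the placement of shared reads was not tested.

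**Figure D2:**
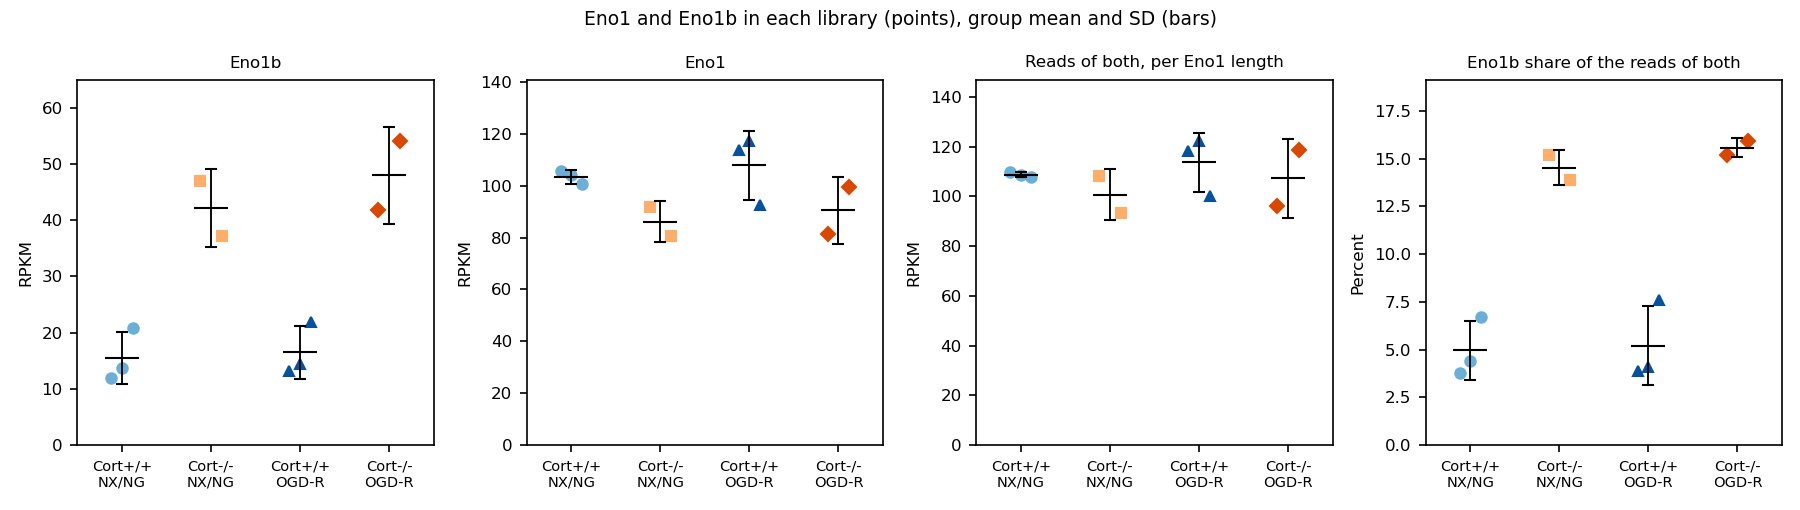
Level of Eno1b, of Eno1 and of their summed reads over the length of Eno1 (RPKM), and the percent of the reads of both that were placed on Eno1b, in the 4 groups; points are libraries, bars the group mean and SD (n = 3 for Cort+/+, 2 for Cort-/-). The Eno1b level and share separate the genotypes in both environments, and the summed level overlaps.

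A further 2 enolases were read at low levels. Eno3, the muscle enolase, measured 7.98, 8.10 and 5.22 RPKM in Cort+/+ and 3.83 and 3.63 RPKM in Cort-/- BECs under NX/NG, then 3.71, 4.74 and 4.78 RPKM and 2.68 and 5.38 RPKM after OGD-R. The Cort-/- libraries were below the Cort+/+ libraries under NX/NG, and the Cort+/+ libraries after OGD-R were below those under NX/NG. Eno2, the neuronal enolase, stayed between 0.653 and 1.37 RPKM, with each Cort-/- library below each Cort+/+ library of the same environment.

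Under NX/NG, the comparison of Cort-/- with Cort+/+ BECs called 0 of the 39 genes and 0 of all 29965 genes tested (limma, 0%). Limma-voom called 81 genes, and 2513 genes had an unadjusted p under 0.05 with limma. At that level Cort-/- BECs had lower levels of 10 of the 39 (25.6%) and higher levels of 2 (5.13%), where these shares were 4.82% and 3.56% of all genes tested. Shares of all genes, here and below, include genes under 1 RPKM, while 36 of the 39 averaged at least 1 RPKM. Of the 13722 genes averaging at least 1 RPKM, 1074 were lower and 763 higher. The median log2 fold change was -0.04 over the 39 genes and -0.01 over all genes. The groups did not overlap for 12 genes that were lower (30.8%) and 6 that were higher (15.4%), against 16.6% and 16.4% of genes averaging at least 1 RPKM. None of these single-gene differences passed the correction with limma, the lowest adjusted p being 0.253.

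Ldha, the main lactate dehydrogenase subunit of hypoxic and glycolytic tissue (chromosome 7, 46841475 to 46855627), measured 159, 148 and 160 RPKM in Cort+/+ against 125 and 121 RPKM in Cort-/- BECs, a log2 fold change of -0.35 (SE 0.06). Ldhb, the subunit of oxidative tissue (chromosome 6, 142490249 to 142507957), measured 16.4, 16.1 and 14.2 RPKM against 10.98 and 11.5 RPKM, a log2 fold change of -0.47 (SE 0.08). Both subunits were lower by a similar factor in Cort-/- BECs, so that the share of Ldha in the pair was 90.9% ± 0.858 (SD, n = 3) and 91.6% ± 0.440 (SD, n = 2). Limma gave an adjusted p of 0.253 for each. The third gene of the lactate group, Slc16a3, the lactate exporter, differed by -0.06 on the log2 scale.

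Pdha1, the catalytic alpha subunit of pyruvate dehydrogenase (chromosome X, 160122209 to 160138413), measured 36.3, 34.5 and 30.6 RPKM in Cort+/+ against 25.8 and 25.6 RPKM in Cort-/- BECs, a log2 fold change of -0.39 (SE 0.08). Its partner Pdhb differed by 0.06 on the same scale. Pdk3, the most expressed of the kinases that switch this complex off, measured 10.7, 10.7 and 9.97 RPKM against 9.07 and 8.51 RPKM (log2 fold change -0.25, SE 0.06), while Pdk1, Pdk2 and Pdk4 had overlapping groups. Mpc1, a subunit of the mitochondrial pyruvate carrier, was one of the 2 genes on the higher side, at 6.22, 6.25 and 6.58 RPKM in Cort+/+ and 7.44 and 8.52 RPKM in Cort-/- BECs (log2 fold change 0.32, SE 0.08), and its partner Mpc2 lay at -0.17. The other gene on the higher side was Eno1b.

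Upstream, Hk2 measured 2.97, 2.60 and 2.13 RPKM in Cort+/+ and 1.63 and 1.74 RPKM in Cort-/- BECs under NX/NG, a log2 fold change of -0.57 (SE 0.17). Pfkfb4, one of the enzymes that set fructose-2,6-bisphosphate, differed by -0.69 (SE 0.19) at about 1 RPKM, while Pfkfb3, the most expressed of them in these cells, measured 7.37, 5.95 and 8.59 RPKM against 7.54 and 7.86 RPKM, with overlap. Of the 6 pentose phosphate genes, G6pdx, which encodes the entry enzyme, differed by -0.20 (SE 0.06) and the other 5 lay between -0.04 and 0.21. Taldo1, transaldolase, the highest of the 6, measured 102, 121 and 119 RPKM against 132 and 131 RPKM, with no overlap and no call. After OGD-R Taldo1 measured 111, 127 and 112 RPKM in Cort+/+ and 119 and 139 RPKM in Cort-/- BECs, and Pfkfb3 measured 7.43, 8.31 and 9.20 RPKM and 9.999 and 6.44 RPKM, both with overlap.

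**Figure D3:**
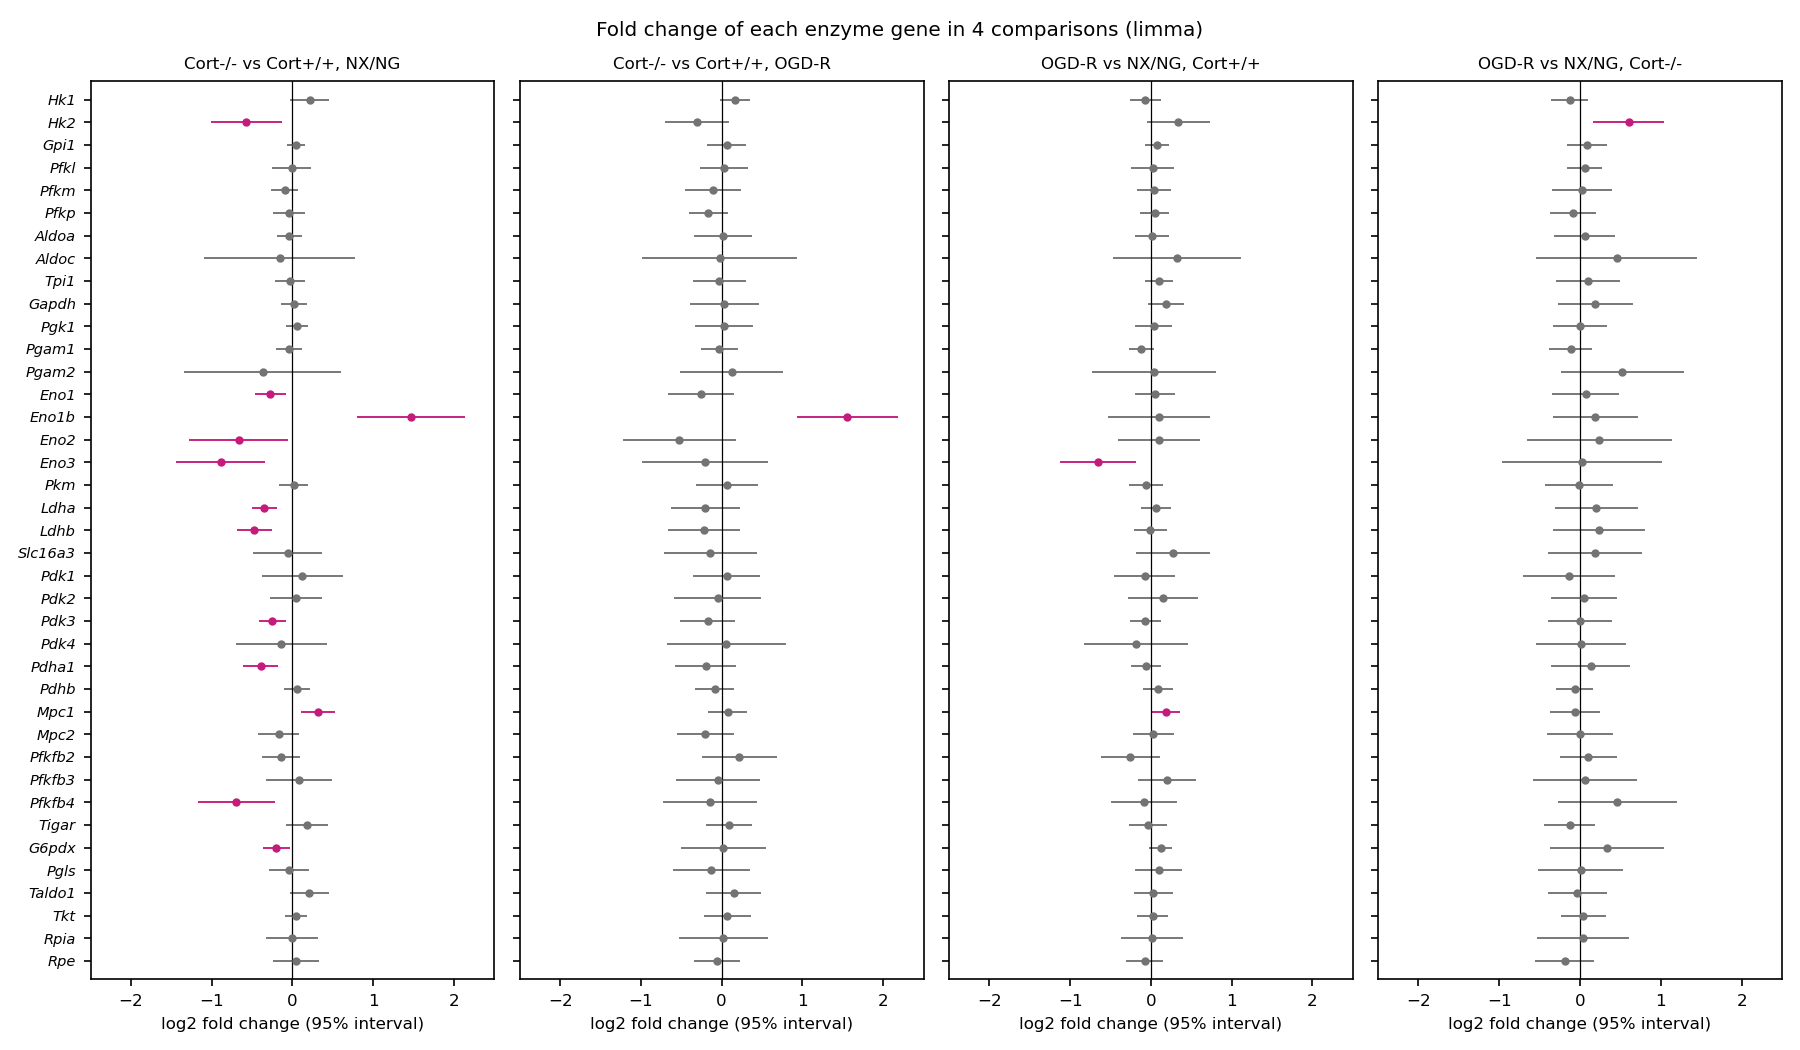
Log2 fold change of each of the 39 genes with its 95% interval (limma) in 4 comparisons; pink marks an unadjusted p under 0.05. Under NX/NG 12 genes are pink, 10 of them lower in Cort-/- BECs, and in each of the other 3 comparisons at most 2 are.

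The promoters of a few of these genes are shown because they carry, or lack, the letters ACGTG beside members whose levels separated under NX/NG. The windows are the 250 bases before the RefSeq start on GRCm38.p6, written 5′ to 3′ on the strand of the gene, and capitals mark ACGTG or its reverse complement CACGT; where both overlap as CACGTG, which is also the letters of an E-box, the match counts on each strand. Such letters were present in 10 of the 38 genes with a window (26.3%) and in 16.5% of the windows of 27025 genes. Of these 10, Hk2, Ldha and Pdk3 were among the genes with lower levels under NX/NG, and Pfkm, Pgk1, Pgam1, Slc16a3, Pdk2, Pdhb and Pfkfb3 were not. The other 7 genes with lower levels had 0 matches. The Ldha window held 5 matches, the Hk2 window 2 and the Eno1 window 0. The Ldha window lies inside the span that GENCODE vM21 gives the gene, since the RefSeq start is further downstream, and overlaps none of its exons. Other forms of the core, such as GCGTG, which the Eno1 window holds, were not searched. A window with 0 matches may therefore still hold them. A match describes letters and shows no binding.
Ldha, chr7:46845554-46845803, plus strand: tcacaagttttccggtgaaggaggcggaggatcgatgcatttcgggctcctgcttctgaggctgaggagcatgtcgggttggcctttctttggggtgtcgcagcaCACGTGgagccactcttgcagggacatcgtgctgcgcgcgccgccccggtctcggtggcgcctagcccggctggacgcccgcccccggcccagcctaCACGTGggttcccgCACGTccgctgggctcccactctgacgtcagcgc
Hk2, chr6:82774455-82774704, minus strand: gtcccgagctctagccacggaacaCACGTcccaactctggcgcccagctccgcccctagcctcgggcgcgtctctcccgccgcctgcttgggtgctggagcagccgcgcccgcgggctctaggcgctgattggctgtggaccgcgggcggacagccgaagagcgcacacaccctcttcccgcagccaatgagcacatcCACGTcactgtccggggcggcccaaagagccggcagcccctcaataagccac
Eno1, chr4:150236458-150236707, plus strand: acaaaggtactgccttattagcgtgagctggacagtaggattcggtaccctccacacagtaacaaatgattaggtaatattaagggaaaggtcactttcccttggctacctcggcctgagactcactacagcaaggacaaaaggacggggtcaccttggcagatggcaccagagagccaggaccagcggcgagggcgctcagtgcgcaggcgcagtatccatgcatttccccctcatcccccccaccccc

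After OGD-R, Cort-/- and Cort+/+ BECs differed by an unadjusted p under 0.05 in 1 of the 39 genes, Eno1b, which was higher (1.72% of all genes tested were), and in 0 that were lower (1.71%). Limma called 0 of 29775 genes (0%), with 1019 at an unadjusted p under 0.05, and limma-voom called 1 gene (0.00504%), none of the 39. The median log2 fold change of the 39 genes was -0.03. The groups did not overlap for 3 genes that were higher (7.69%) and 4 that were lower (10.3%), against 7.87% and 8.23% of genes averaging at least 1 RPKM. In 37 of them the 95% interval lay within 1 on either side of 0, and in 18 within 0.5.

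The 2 Cort-/- libraries after OGD-R did not behave alike for these genes. In replicate 1, all 10 genes on the lower side under NX/NG were also below every Cort+/+ OGD-R library. In replicate 3, the library low in ribosomal RNA, 2 of the 10 were below (Hk2 and Eno2), 5 lay within the Cort+/+ range and 3 were above it. Over all 39 genes, 18 were below and 5 above the Cort+/+ range in replicate 1, where 28.4% and 26.4% of all genes averaging at least 1 RPKM were, and 6 were below and 17 above it in replicate 3, where 23.2% and 22.8% were. Ldha measured 159, 172 and 157 RPKM in Cort+/+ BECs and 121 and 164 RPKM in Cort-/- replicates 1 and 3. Ldhb measured 16.5, 15.5 and 14.5 RPKM in Cort+/+ BECs and 10.95 and 16.1 RPKM in the same Cort-/- libraries. Both genes were close to their NX/NG level of Cort-/- BECs in replicate 1 and inside the Cort+/+ range in replicate 3.

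The same split held for Pdha1, with 32.8, 32.5 and 31.7 RPKM in Cort+/+ BECs and 23.99 and 33.2 RPKM in Cort-/- replicates 1 and 3, and for Pdk3, with 9.86, 9.18 and 10.8 RPKM against 7.85 and 9.87 RPKM. G6pdx, named after its values were seen, lay on opposite sides of the Cort+/+ range in the 2 replicates, with 27.3, 26.6 and 25.1 RPKM in Cort+/+ BECs and 21.01 and 34.0 RPKM in the Cort-/- replicates. Eno1b did not show the split, since both replicates were above all Cort+/+ libraries. Over the 39 genes, 31 were higher in replicate 3 than in replicate 1, with a median difference of 0.18 on the log2 scale; in the other 7 pairs of libraries of 1 group that median was at most 0.10 in size. Without replicate 3 the median log2 fold change of genotype after OGD-R was -0.11 over the 39 genes and -0.02 over all genes. Without replicate 1 the medians were 0.10 and -0.02. Each of these fits kept only 1 Cort-/- library. With low ribosomal RNA as a factor in the fit the median of the 39 genes was -0.04. Of the 39, Eno1b alone then had an unadjusted p under 0.05 (limma), on the higher side. Of all 29775 genes in that fit, 614 were higher and 701 lower. The same 2 Cort-/- libraries also differed in markers of other cells. The 5 epithelial markers summed to 39.4 RPKM in replicate 1 and 8.86 RPKM in replicate 3, against 2.74 to 7.53 RPKM in Cort+/+ OGD-R libraries, the smooth muscle markers to 1028 and 1492 RPKM and the endothelial markers to 1686 and 1346 RPKM. Under NX/NG the epithelial sum was 58.2 RPKM in Cort+/+ replicate 2 and 4.75 to 16.1 RPKM in the other 4 libraries. The part of these markers in the split was not tested.

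**Figure D4:**
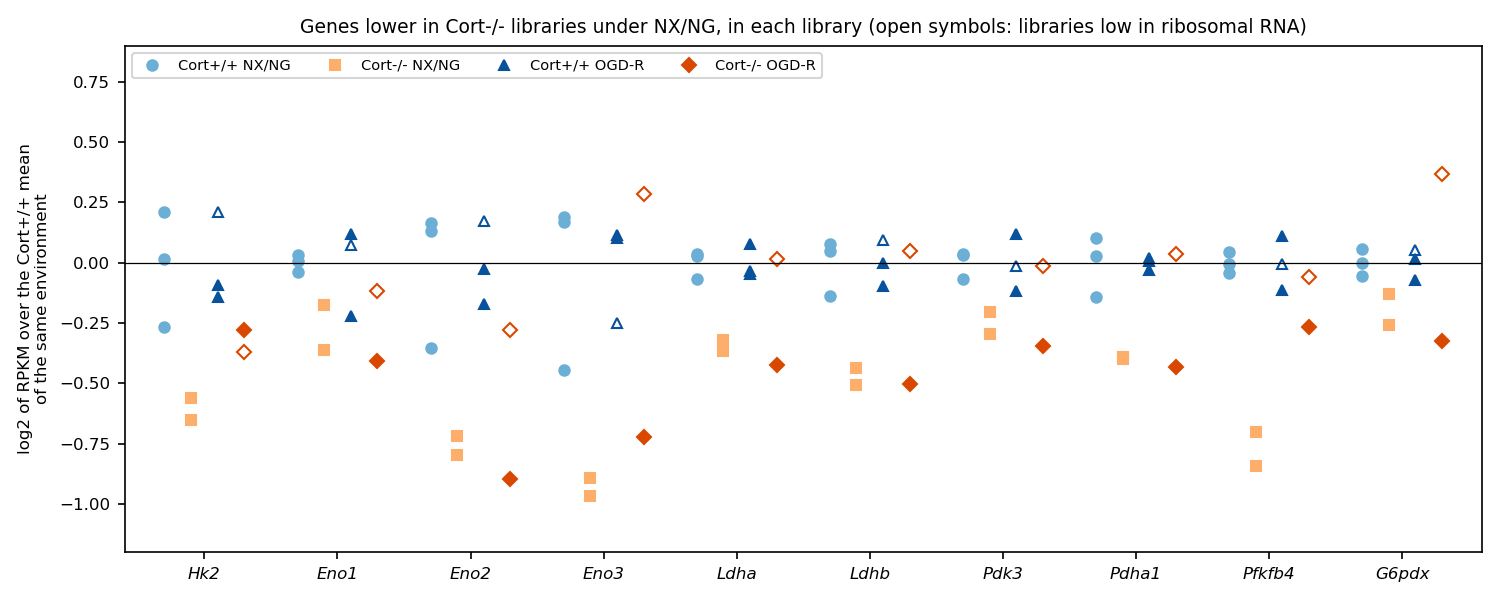
Log2 ratio of each library to the mean of the Cort+/+ libraries of the same environment for the 10 genes with lower levels in Cort-/- than in Cort+/+ libraries under NX/NG; open symbols are the libraries low in ribosomal RNA. The filled Cort-/- OGD-R points (replicate 1) lie with the Cort-/- NX/NG points below 0, and the open ones (replicate 3) lie near or above 0 except for Hk2 and Eno2.

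A comparison of genotype over both environments, added after the data were seen, used all 10 libraries with environment as a term. Limma called 25 of 27321 genes (0.0915%), and of the 39 genes it called Eno1b, with a log2 fold change of 1.51 (SE 0.19, adjusted p = 0.0287). At an unadjusted p under 0.05, 4 of the 39 were higher (5.21% of all genes) and 10 were lower (5.89%), the latter being Hk2, Eno1, Eno2, Eno3, Ldha, Ldhb, Pdk3, Pdha1, Mpc2 and Pfkfb4. When each library was left out in turn, the adjusted p of Eno1b lay between 0.0136 and 0.107 and the log2 fold change between 1.43 and 1.62. The call was kept without Cort+/+ NX/NG replicate 3 (0.0136), Cort+/+ OGD-R replicate 3 (0.0227) and Cort-/- OGD-R replicate 3 (0.0318), and was lost without each of the other 7. The summed reads of Eno1 and Eno1b were not called in the same fit (log2 fold change -0.10, SE 0.08, adjusted p = 0.725).

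Ldha (log2 fold change -0.27, SE 0.09), Ldhb (-0.34, SE 0.11) and Pdha1 (-0.29, SE 0.09) had adjusted p of 0.279, 0.272 and 0.272 over both environments with limma. Without Cort-/- OGD-R replicate 3 the fit called 182 genes (0.666%), among them Ldha (-0.37, adjusted p = 0.0371), Ldhb (-0.48, adjusted p = 0.026) and Pdha1 (-0.40, adjusted p = 0.0288) beside Eno1b. Without both libraries low in ribosomal RNA it called 76 genes (0.278%), and of the 39 only Ldhb (-0.46, adjusted p = 0.0455), with Ldha at 0.0644, Pdha1 at 0.0589 and Eno1b at 0.0637. The direction of these genes was the same in all of these fits, while the call for the lactate and pyruvate dehydrogenase genes depended on the library that was left out.

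OGD-R against NX/NG asks how the enzymes stood 20 h after the return of oxygen, glucose and serum. In Cort+/+ BECs limma called 9 of 27075 genes (0.0332%), none of them among the 39, and limma-voom called 1 (0.00488%). An unadjusted p under 0.05 was reached by Mpc1, which was higher (3.01% of all genes were), and Eno3, which was lower (2.48%). Mpc1 measured 7.16, 6.91 and 7.64 RPKM after OGD-R, above its 3 NX/NG libraries, a log2 fold change of 0.19 (SE 0.07). For Eno3 the log2 fold change was -0.66 (SE 0.20). The limma adjusted p was 0.881 for both. Without replicate 1 after OGD-R, low in ribosomal RNA, 0 of the 39 were higher and 1 was lower at an unadjusted p under 0.05 (limma). Of all 26885 genes tested then, 997 were higher and 824 lower. With low ribosomal RNA as a factor, 1 of the 39 was higher and 0 were lower, and 1071 and 898 of 27075 genes were. Of the 39 genes, 26 had a log2 fold change above 0, against 51.6% of genes averaging at least 1 RPKM, and the median was 0.03.

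In Cort-/- BECs limma called 0 of 26523 genes between OGD-R and NX/NG (0%), with 1082 at an unadjusted p under 0.05, and limma-voom called 0. Hk2 was the 1 gene of the 39 with an unadjusted p under 0.05, on the higher side (2.21% of all genes were, and 1.87% were lower), at 2.69 and 2.52 RPKM after OGD-R against 1.63 and 1.74 RPKM under NX/NG. Its log2 fold change was 0.60 (SE 0.16, limma adjusted p = 0.922). In Cort+/+ BECs Hk2 measured 3.77, 2.96 and 3.06 RPKM after OGD-R, a log2 fold change of 0.34 (SE 0.16), with the lowest OGD-R library just below the highest NX/NG library. The contrasts of the genotypes share no library. Hexokinase 2 took 5.42% of the summed level of the pair in its lowest library, under NX/NG in Cort-/- BECs, and 14.4% in its highest, after OGD-R in Cort+/+ BECs.

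The intervals limit what these comparisons can show. In Cort+/+ BECs the 95% interval of the change after OGD-R lay within 1 log2 unit for 37 of the 39 genes and within 0.5 for 28, and in Cort-/- BECs, with 2 libraries against 2, for 32 and 20. For the change in Cort-/- BECs, the median log2 fold change over the 39 genes was 0.05 with all libraries. It was 0.14 without OGD-R replicate 1 and -0.05 without OGD-R replicate 3, the library low in ribosomal RNA. The interaction of genotype and environment was called for 3 of 27321 genes (0.011%), none among the 39, and by limma-voom for 0, and 0 of the 39 had an unadjusted p under 0.05 (1.69% of all genes higher, 1.17% lower). The lowest p values belonged to Pfkfb4 (log2 difference 0.54, SE 0.26) and Mpc1 (-0.25, SE 0.12), both with a limma adjusted p of 0.9998, so a difference of the OGD-R response between genotypes was not detectable for any of the 39 genes with these libraries.

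Within enzyme families, the isoform with the highest level was the same in all 4 groups. Hk1 held 85.6% to 94.6% of the hexokinase sum over the 10 libraries, Aldoa 99.8% to 99.9% of the aldolase sum, Pgam1 94.7% to 97.6% of the mutase sum and Ldha 90.2% to 91.9% of the lactate dehydrogenase sum. The phosphofructokinases were mixed, with Pfkl at 43.9% to 51.02%, Pfkm at 31.4% to 37.2% and Pfkp at 17.5% to 20.6%. Among the kinases of pyruvate dehydrogenase, Pdk3 held 41.0% to 54.5%, and among the PFKFB genes Pfkfb3 held 58.4% to 72.2%. Mpc1 made up 71.5% ± 0.142 (SD, n = 3) of the carrier pair in Cort+/+ and 78.0% ± 1.26 (SD, n = 2) in Cort-/- BECs under NX/NG, and 73.6% ± 1.77 and 77.3% ± 0.906 after OGD-R. These shares rest on gene lengths that count every annotated exon. That length was 13401 bases for Pfkp, 7344 for Mpc2 and 5379 for Eno1, against 4145, 1025 and 2027 in their longest coding transcripts. Pfkp had 1017 to 1450 reads per library and Pfkm 454 to 648, and Mpc2 195 to 253 and Mpc1 154 to 229. The shares of Pfkp, Pfkm, the carrier pair and the enolases therefore depend on the length used.

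**Figure D5:**
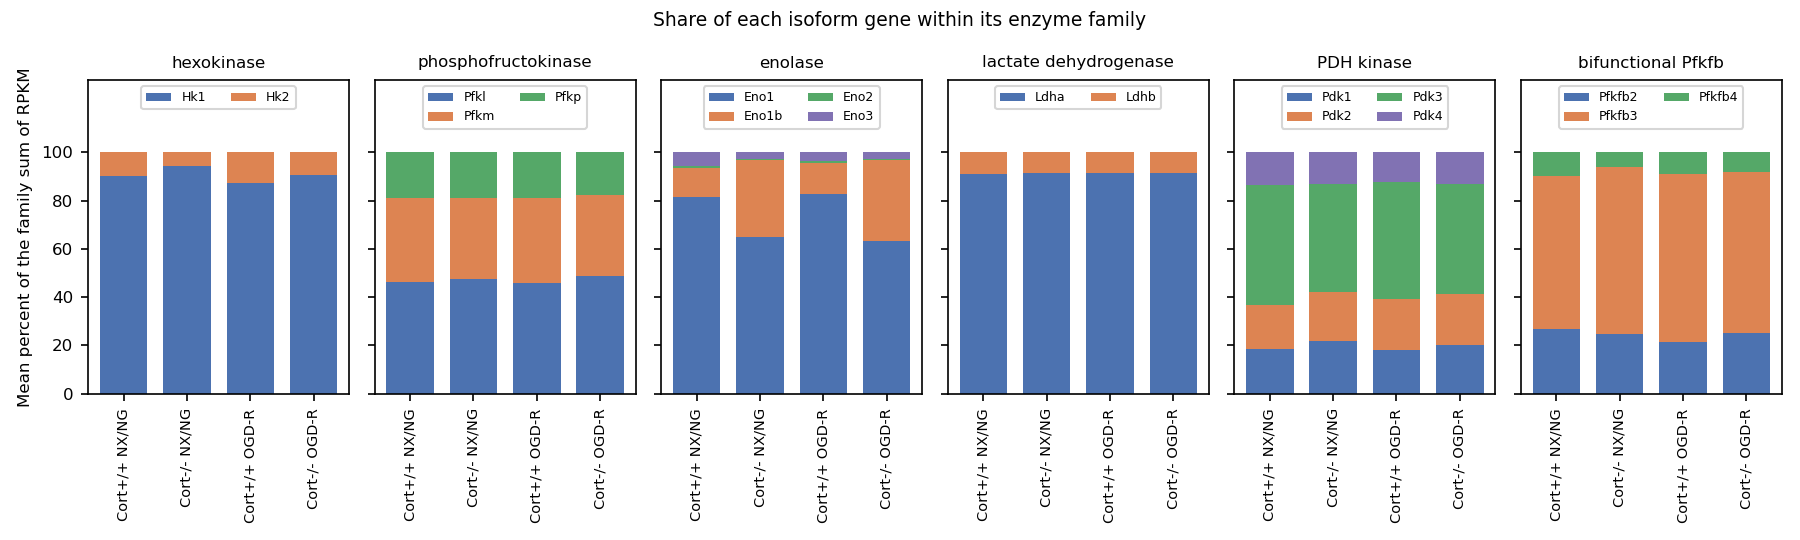
Mean share of each gene in the summed RPKM of its enzyme family in the 4 groups (bars, percent; n = 3 libraries for Cort+/+ and 2 for Cort-/-). The dominant gene of each family is the same in every group, and the enolase bars show the larger share of Eno1b in Cort-/- BECs (31.7% and 33.4% against 12.1% and 12.9%).

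Of 47 further genes of glycolysis, gluconeogenesis, glucose uptake and the pentose phosphate pathway, 42 were tested under NX/NG and 43 after OGD-R, and limma called none of them in any of the 5 comparisons. With an unadjusted p under 0.05, 1 was higher and 1 lower in Cort-/- BECs under NX/NG, where 3.56% and 4.82% of all genes were, and 0 in either direction after OGD-R (1.72% and 1.71%). In Cort+/+ BECs 1 was higher and 3 were lower after OGD-R than under NX/NG (3.01% and 2.48% of all genes), and in Cort-/- BECs 0 were (2.21% and 1.87%). Bpgm, the mutase that makes 2,3-bisphosphoglycerate, measured 7.92, 9.31 and 7.39 RPKM under NX/NG and 12.5, 14.5 and 11.02 RPKM after OGD-R in Cort+/+ BECs, a log2 fold change of 0.62 (SE 0.13, limma adjusted p = 0.677). Gpd2, the mitochondrial glycerol-3-phosphate dehydrogenase, differed by -0.22 (SE 0.08) in the same comparison and Pdhx, a component of the pyruvate dehydrogenase complex, by 0.22 (SE 0.08) between genotypes under NX/NG. Pgd and H6pd, pentose phosphate genes 0.0232 and 0.853 Mb from Cort, differed between genotypes by 0.03 and -0.05 under NX/NG and by 0.04 and 0.07 after OGD-R on the log2 scale, within their standard errors.

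Regulators of the pathway were set beside it. Of 11 such genes, 0 had an unadjusted p under 0.05 between genotypes in either environment, and 1 was lower after OGD-R in each genotype, where 2.48% of all genes were in Cort+/+ and 1.87% in Cort-/- BECs. This was Txnip, whose product holds back glucose uptake, at 38.7, 42.5 and 41.4 RPKM under NX/NG and 24.03, 25.1 and 29.2 RPKM after OGD-R in Cort+/+ BECs, and at 41.0 and 45.1 RPKM against 26.7 and 27.0 RPKM in Cort-/- BECs. The log2 fold changes were -0.65 (SE 0.09) and -0.68 (SE 0.09), not called by limma (adjusted p = 0.224 and 0.518). Of 18 HIF targets outside the pathway, 3 were lower in Cort-/- BECs under NX/NG and 1 after OGD-R at an unadjusted p under 0.05, and 1 was higher after OGD-R in each genotype. Of all genes, 4.82% and 1.71% were lower between genotypes in these environments, and 3.01% and 2.21% were higher after OGD-R in Cort+/+ and Cort-/- BECs. All 18 averaged at least 1 RPKM. Among genes at that level, 1074 of 13722 and 309 of 13833 were lower between genotypes in these environments. After OGD-R, 589 of 13804 in Cort+/+ and 267 of 13730 in Cort-/- BECs were higher. Vegfa, the endothelial growth factor gene, measured 9.28, 10.01 and 7.25 RPKM in Cort+/+ and 5.19 and 5.24 RPKM in Cort-/- BECs under NX/NG, and 13.1, 11.4 and 9.91 RPKM against 7.79 and 8.36 RPKM after OGD-R. Its log2 fold change between genotypes was -0.74 (SE 0.15) and -0.49 (SE 0.14), with limma adjusted p of 0.304 and 0.978.

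Some summed markers of other cells moved with genotype under NX/NG. The summed level of 7 pericyte markers was 7.81 to 10.5 RPKM in the Cort-/- and 18.3 to 21.9 RPKM in the Cort+/+ libraries. That of 6 fibroblast markers was 86.0 to 124 RPKM and 198 to 285 RPKM, carried by Col1a1, Col1a2 and Col3a1. Pdgfra went the other way, at 0.498 and 0.727 RPKM in Cort-/- and 0.326 to 0.375 RPKM in Cort+/+ libraries. The log2 fold change was above 0 for 2 of 6 fibroblast, 1 of 7 pericyte and 10 of 11 endothelial markers. The 11 endothelial markers summed to 1577 to 1745 RPKM in Cort-/- and 1223 to 1537 RPKM in Cort+/+ BECs. After OGD-R the pericyte sums were 15.0 to 17.1 RPKM and 17.0 to 22.3 RPKM and the fibroblast sums 194 to 245 RPKM and 225 to 333 RPKM. None of the listed markers was at 0 in all libraries, and Kcnj8, Vtn, Abcc9 and Higd1b of the pericyte list and Pdgfra and Lum of the fibroblast list were under 1 RPKM throughout. The part of these markers in the lower level of Ldha, Ldhb, Pdha1, Hk2 and the other 6 genes under NX/NG was not tested, and in bulk libraries fewer cells of a type and less RNA per cell cannot be told apart.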

How the data were processed

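Paired-end RNA-seq had been performed on 12 samples. The authors deposited RPKM values scaled within each environment in 1 table per environment, and values of 10 samples were used; 10 further per-library columns of read categories were not. The submitters' processing notes name edgeR; the aligner, genome build and annotation are not given in the sources used here, and the labels and methods differ in kit and read length. Table lengths equalled the GENCODE vM21 exon union for 98.2% of 30627 symbols. Whole reads were recovered from 99.9987% of values above 0 (within 0.05 of a whole number). Levels and comparisons between environments used RPKM recomputed from these reads over both tables, and genotype tests within an environment the deposited RPKM.

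Each comparison was fitted with limma 3.58.1 (R 4.3.3) on log2(RPKM + 0.1) for all genes with a value above 0, which understates changes of low genes, with Benjamini-Hochberg adjustment and calls at 0.05; the code was tested on simulated data. Alternatives were a pseudocount of 1, a filter at 1 RPKM in 2 libraries, quantile normalization, limma-voom on recovered reads of genes with at least 10 reads, all groups in 1 fit, another scaling, low ribosomal RNA as a factor, a replicate block and leaving out libraries. The members and lists were chosen with earlier results of these data known. Values in every library were given for genes called by limma or limma-voom, for the 3 lowest unadjusted p per comparison when under 0.05, for the highest gene of each role, and for Eno1 and Eno1b; for other lists, for genes under 0.05 with a mean of at least 1 RPKM. Whether pools shared animals is not stated, so p-values measure the spread between these pools. The depth was 12386048 to 12390428 reads; intervals rest on 2 or 3 libraries per group.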

Additional observations from a re-analysis of the deposited data

How the results depend on the processing

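Of 227 alternatives for 17 single genes, 222 kept direction and side of the threshold. Eno1b turned with its reads summed with those of Eno1 (log2 fold change -0.12 under NX/NG and -0.087 after OGD-R) and was called under NX/NG with limma-voom (1.48) and over both environments (1.51); the summed feature differs by construction, and for the others the cause was not tested. Of 69 alternatives for the number of the 39 genes called, 66 gave 0; limma-voom under NX/NG gave 1, and the fit over both environments gave 1 in place of each genotype comparison. Between genotypes under NX/NG, 0 genes were called, 20 with a pseudocount of 1, 81 with limma-voom, 4 with all 4 groups in 1 fit and 25 over both environments. After OGD-R, where limma called 0 genes, these were 1 with limma-voom, 8 with 4 groups and 25 over both environments. Leaving out 1 library gave 0 to 683 genes under NX/NG (543 without Cort-/- replicate 1 and 683 without replicate 2) and 0 to 710 after OGD-R (710 without Cort-/- replicate 1 and 626 without replicate 3); a lone Cort-/- library was then assumed to vary like the Cort+/+ libraries. For OGD-R against NX/NG in Cort+/+ BECs the 9 genes became 5 with a pseudocount of 1, 1 with limma-voom and 0 with the filter, 4 groups, the ribosomal RNA term, the replicate block or any library left out. For the interaction the 3 genes became 0 with a pseudocount of 1, the filter, limma-voom, the ribosomal RNA term or the replicate block, and 0 to 8 with 1 library left out. The replicate block called 0 genes between genotypes in either environment. Deviations of same-numbered libraries from their group means had r from -0.53 to 0.19 over 12 pairs. In a group of 2 libraries these deviations mirror each other, so the check cannot decide whether same-numbered libraries share animals. No paired analysis was possible because the groups share only 1 number for OGD-R against NX/NG in Cort-/- BECs. The term for ribosomal RNA could not be fitted under NX/NG, where no library is low. With 2 Cort-/- libraries per environment, changes of the size of most of the 39 genes are not detectable after correction.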
